A study of Homo sapiens with 6 samples.

Results

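The comparison set the control library of week 3 (control 3) against the control libraries of weeks 1 and 2 (control 1 and control 2). These are 3 of the 6 RNA-seq libraries of the study, all of them chosen by their labels, and all genes of the count table were read in them. The cells are MiaPaCa2, a human pancreatic ductal adenocarcinoma (PDAC) cell line, and the controls carry CasRx, a Cas13d nuclease that cuts RNA where a guide RNA leads it. CasRx had been brought in on a transposon. The controls have no guide, while the 3 knockdown libraries come from the same CasRx line with a lentiviral guide against PPP2R1A and serve here only for scaling and as values set side by side. The labels give the controls the genotype WT and give no other treatment. The weeks follow from the numbers 8, 15 and 22 in the library names. No guide, agent or genotype separates the sides.

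Only 1 library stands on the side of week 3, so week and library cannot be told apart, and no test was possible. Sizes of differences are described instead, beside the difference between control 2 and control 1. Levels are given as CPM, counts brought to one library size after TMM scaling, a scaling that assumes most genes to be alike between libraries. Ratios of counts carry exact 95% intervals, which cover counting error only. A gene was called higher or lower when control 3 lay at least 2-fold above the higher or below the lower of control 1 and control 2, on CPM plus 0.5. Depth was 28499214, 29156486 and 34774074 gene counts for control 1, 2 and 3.

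A cancer cell line is a population, and its cells can differ in the genes they use and in the number of copies they hold of a chromosome. MiaPaCa2 is known as a mesenchymal line that has lost the CDKN2A region. HOX genes encode transcription factors that lie in clusters and set positions along the body axis. Keratins and integrins tie epithelial cells to each other and to their matrix. Interferon-stimulated genes encode antiviral proteins.

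PPP2R1A, the scaffold subunit of the phosphatase PP2A, shares its locus with another gene name and had 583, 617 and 643 CPM in control 1, 2 and 3. It had 143 and 146 CPM in knockdown 1 and 2, and 547 CPM in the library labelled knockdown 3, near the controls. The paper reports that the knockdown was weaker at its latest time point, and it left that sample out of its analysis. Over genes, the library labelled knockdown 3 was 2-fold apart from control 1 at 748 genes and from control 2 at 784, against 861 genes for control 2 against control 1. Control 3 was 2-fold apart from control 1 at 2070 genes, from control 2 at 1895 and from the library labelled knockdown 3 at 1895. Knockdown 1 and 2 were 2550 and 2441 genes away from control 3. Control 3 thus stood further from each of these 3 libraries than they stood from one another.

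The line's markers were present in control 3. VIM, the intermediate filament of mesenchymal cells, had 7257, 9835 and 10544 CPM in control 1, 2 and 3. All 8 genes listed for the line passed the filter. CDKN2A, CDKN2B and MTAP had 0 counts in all 3 controls, which allows up to 0.107 CPM. Of 12 markers of classical epithelial PDAC, 8 had 0 counts in all controls, CDH1 and EPCAM among them, and the list summed to 0.870 CPM in control 3 and to 1.67 and 3.24 CPM in control 1 and 2. Blood markers summed to 2.54, 1.60 and 6.31 CPM in control 1, 2 and 3, with PTPRC and CD3E at 0 throughout and LYZ, which encodes lysozyme, at 0, 0 and 174 counts. CD68 and CD14 went the other way, with 42, 28 and 8 counts and 21, 15 and 3 counts, and CD79A had 10, 2 and 18 counts. Fibroblast markers summed to 10.95, 12.4 and 59.5 CPM through COL3A1, with DCN, LUM, PDGFRA and FAP at 0. COL3A1 shares a locus and is uncertain. Endothelial markers summed to 2.92, 2.28 and 0 CPM, all of it from CDH5 with 84, 64 and 0 counts. The other 5 endothelial markers, PECAM1 and VWF among them, had 0 counts in all controls. Acinar markers summed to 0.243, 0 and 0.124 CPM. In bulk RNA, fewer cells of a type and less RNA per cell cannot be told apart.

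In control 3, 1227 of 13065 genes lay outside both earlier controls, that is 9.39% of the genes past the filter on low values. Control 3 was above both at 618 genes (4.73%) and below both at 609 (4.66%). The filter asked that the sides average at least 1 CPM. A gene used on 1 side only therefore passed through the side where it was high. Between control 2 and control 1, 861 genes (6.59%) were 2-fold apart. Against single controls, control 3 was 2-fold apart at 15.8% of genes from control 1 and at 14.5% from control 2. The share of genes called was 17.2% among genes of 1 to 5 CPM and 3.84% among those of 100 CPM and over, where the median size of the log2 ratio was 0.28 for control 3 and 0.14 for control 2 against control 1. At 4-fold, 225 genes were higher and 178 lower, and at 16-fold 55 and 27. Of the 1227 genes, 85 were also 2-fold apart between control 1 and control 2. StringTie had placed 106 of the 618 genes called higher and 108 of the 609 called lower at a locus with other genes. Of all 13065 genes past the filter 2313 were so placed, a like share. Reads at such a locus may have been shared out differently between libraries, and such genes are named as uncertain.

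**Figure D1:**
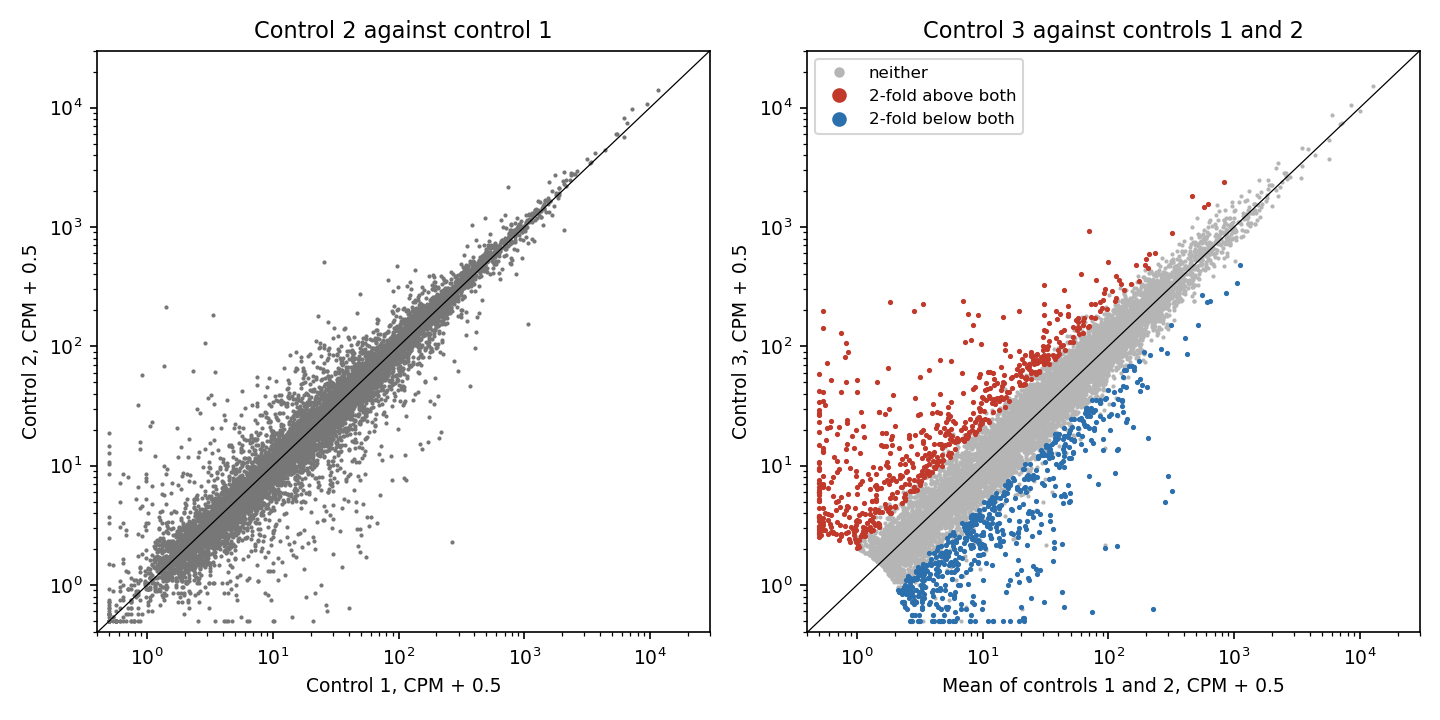
Level of each of 13065 genes in CPM plus 0.5, on log axes, with the line of equal levels. The left panel sets control 2 against control 1 and the right panel control 3 against the mean of both, with the 618 genes called higher in red, the 609 called lower in blue and all others in grey.

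Several genes went from near no counts to high counts. CALB2, which encodes the calcium-binding protein calretinin, had 2, 0 and 6320 counts in control 1, 2 and 3, or 0.0695, 0 and 196 CPM. The ratio of counts was 5581 (95% exact interval 1544 to 46094). CDK6, a kinase that drives cells from G1 into S phase, had 2, 0 and 4591 counts, a ratio of 4054 (1122 to 33486). Only control 3 had more than a few counts under either gene name, and the knockdown libraries had at most 0.118 CPM of CDK6. KLK6, a secreted serine protease of the kallikrein family, had 0.243, 0.249 and 130 CPM, a ratio of 528 (314 to 967). ITGB4, the integrin subunit of hemidesmosomes, had 1.53, 1.14 and 233 CPM, a ratio of 174 (139 to 222). In these genes control 1 and 2 lay within 1 log2 unit of each other.

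SFRP1, a secreted inhibitor of WNT signalling, had 0, 4 and 2334 counts, a ratio of 1031 (402 to 3785). EPS8, an actin-capping adaptor of growth factor receptors, had 0.521, 0.178 and 89.9 CPM. PCDH1, a protocadherin of cell contacts, had 2.47, 2.17 and 198 CPM, a ratio of 85.1 (71.6 to 102). NPAS2, a transcription factor of the circadian clock, had 2.92, 2.74 and 226 CPM, a ratio of 79.8 (68.2 to 93.8). These genes belong to different families, and in each of them both earlier controls were low. MAP2, a microtubule protein of neurons, and GASK1B, a protein of the Golgi, had no count in control 1 and 2, and 1077 and 1348 counts in control 3. With a floor of 3 counts over both libraries, MAP2 was at least 634-fold and GASK1B at least 794-fold higher. SYT1, the calcium sensor of synaptic vesicles, had 0.243, 0 and 51.4 CPM. ADGRL1, an adhesion receptor of synapses, had 0.278, 0.321 and 81.4 CPM, and it had 26.4, 23.2 and 50.6 CPM in the 3 knockdown libraries. NPAS2 had 11.6 and 12.97 CPM in knockdown 1 and 2, also above control 1 and 2. EMC10, a subunit of a membrane insertase that most cells use, had 1, 1 and 1320 counts and at most 0.0827 CPM in the knockdown libraries. A count of 0 or 1 for such a gene is what the table assigned to its name, and whether its reads stood under another locus name was not tested.

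Other genes had few or no counts under their name in control 3. PDE5A, the phosphodiesterase that breaks down cyclic GMP, had 6768, 6124 and 4 counts in control 1, 2 and 3, or 235, 218 and 0.124 CPM. It was 1825-fold lower by the ratio of counts (713 to 6699). It also had 0.0827 and 0.174 CPM in knockdown 1 and 2, and 190 CPM in the library labelled knockdown 3. TNFSF18 and TNFSF4, the ligands of the T-cell receptors GITR and OX40, are neighbours on chromosome 1. TNFSF18 had 88.1, 59.4 and 0.0932 CPM, the last of these from 3 counts, and was 793-fold lower (271 to 3848). TNFSF4, which shares its locus and is uncertain, had 277, 290 and 4.47 CPM and was 63.3-fold lower (53.7 to 75.1). Both ligands were thus low in control 3, whereas in knockdown 1 and 2 TNFSF18 had 78.6 and 59.9 CPM and TNFSF4 had 14.98 and 14.2 CPM.

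CASP4, the caspase that senses bacterial lipopolysaccharide in the cytosol, had 117, 115 and 1.62 CPM and was 71.9-fold lower (54.8 to 96.4). HKDC1, a hexokinase, had 322, 321 and 5.69 CPM and was 56.5-fold lower (48.9 to 65.8). Control 1 and control 2 gave the same level of both genes within 0.03 on the log2 scale. The receptor tyrosine kinase ROR1 had 51.8, 45.03 and 4.44 CPM, and ROR1-AS1, an antisense RNA of its locus, had 43.2, 44.2 and 0.155 CPM. The strand setting of the counting is not given in the sources used here, so the reads of the pair cannot be told apart. GNAQ, the alpha subunit of a G protein that most cells hold, had 547, 627 and 0 counts and was at least 222-fold lower, taking the floor of 3 counts for control 3. MAP3K21, a kinase upstream of JNK, had 514, 401 and 0 counts and was at least 173-fold lower. MEST, an imprinted gene, had 23.8, 18.1 and 0.0311 CPM, NUDT11, a diphosphoinositol phosphatase, had 39.0, 44.96 and 0.373 CPM, and BCL9, a WNT coactivator, had 27.4, 13.4 and 0.0311 CPM. CHD8, RAB5C, CARD16 and MT-ND4 also belong to the 15 lowest and are uncertain because of a shared locus. MT-ND4, a subunit of respiratory complex I encoded in mitochondrial DNA, had 10.01, 50.6 and 0.218 CPM, and its earlier controls differed by 2.28 on the log2 scale.

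Switches of this kind were counted over the whole table. No count in control 1 and 2 with at least 100 in control 3 was seen for 34 genes. At least 100 counts in both earlier controls with 0 in control 3 was seen for 15 genes. Between the earlier controls, 6 genes had 0 counts in control 1 and at least 100 in control 2, and 9 had the reverse. These 2 counts ask the condition of 1 library on each side. The 34 and the 15 ask it of both earlier controls, so the rules are unlike. The 34 genes included HOXB5, HOXB6 and HOXB8, the cytokine LIF, the receptor CD40 of the TNF family, WNT10B, the purine enzyme XDH, the GTPase RAC2, the imprinted PEG10 and the protease inhibitor SERPINA1. The 15 included CCN2, a matrix protein, PPP1R14A, an inhibitor of myosin phosphatase, and the growth factor PDGFD. NELFCD, also among the 34, had 0, 0 and 325 counts in control 1, 2 and 3, and 143, 252 and 224 counts in knockdown 1, 2 and 3. Whether reads of any gene at 0 stood under another locus name was not tested. These genes outside the 15 extremes, NELFCD among them, were picked after their counts were seen.

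The promoters of 3 genes among the highest ratios and 2 among the lowest are shown with their count of the dinucleotide CG, the site of DNA methylation. Of these genes MAP2 alone had 0 counts on 1 side. Sequences are the 250 bases before the start given by RefSeq (build GRCh38.p14), on the strand of the gene, with each CG in capitals. CDK6 lies at chr7:92836574-92836823 and KLK6 at chr19:50969592-50969841, both on the minus strand, and MAP2 lies at chr2:209661246-209661495 on the plus strand. PDE5A lies at chr4:119628805-119629054 and CASP4 at chr11:104968575-104968824, both on the minus strand.
CDK6: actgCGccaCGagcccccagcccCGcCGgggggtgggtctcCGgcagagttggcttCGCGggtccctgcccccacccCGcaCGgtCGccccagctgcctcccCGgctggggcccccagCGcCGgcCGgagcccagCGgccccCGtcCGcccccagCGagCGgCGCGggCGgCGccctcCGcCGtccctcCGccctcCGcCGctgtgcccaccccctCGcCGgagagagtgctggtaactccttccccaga
KLK6: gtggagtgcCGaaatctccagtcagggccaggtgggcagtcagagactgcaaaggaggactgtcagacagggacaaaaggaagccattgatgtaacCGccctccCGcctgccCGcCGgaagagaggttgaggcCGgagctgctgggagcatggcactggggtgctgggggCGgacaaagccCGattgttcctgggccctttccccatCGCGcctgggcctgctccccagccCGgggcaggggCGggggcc
MAP2: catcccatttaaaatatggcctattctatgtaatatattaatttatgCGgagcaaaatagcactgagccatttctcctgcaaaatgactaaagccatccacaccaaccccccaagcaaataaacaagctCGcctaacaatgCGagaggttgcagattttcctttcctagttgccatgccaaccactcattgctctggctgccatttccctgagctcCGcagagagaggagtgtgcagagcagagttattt
PDE5A: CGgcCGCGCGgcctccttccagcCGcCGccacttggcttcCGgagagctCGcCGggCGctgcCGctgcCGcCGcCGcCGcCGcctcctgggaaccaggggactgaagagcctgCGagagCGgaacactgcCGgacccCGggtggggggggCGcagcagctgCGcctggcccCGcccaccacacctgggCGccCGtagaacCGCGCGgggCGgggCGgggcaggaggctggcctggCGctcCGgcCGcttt
CASP4: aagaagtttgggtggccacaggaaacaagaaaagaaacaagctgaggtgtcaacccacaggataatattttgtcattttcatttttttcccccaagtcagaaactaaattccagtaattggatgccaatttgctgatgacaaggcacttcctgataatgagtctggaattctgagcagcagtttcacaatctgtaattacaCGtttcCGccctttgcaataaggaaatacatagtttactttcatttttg
They hold 30, 12, 4, 33 and 2 CG, in that order. The letters CG read the same on both strands. Of the 13065 genes past the filter, 9908 had an entry, with a median of 22 CG, and 87.6% held at least 10. Among the 34 genes at 0 in control 1 and 2, 23 had an entry, with a median of 5 CG, and 6 of these 23 (26.1%) held at least 10. Among the 15 genes at 0 in control 3, 7 had an entry, with a median of 21. All genes called higher had a median of 19 over 444 entries and all called lower a median of 20 over 477. The 34 genes passed the filter through control 3 alone, so their values are a description and no like set stands beside them. The 7 entries of genes at 0 in control 3 are too few to set against theirs. A start given by RefSeq need not be the one used in these cells, and methylation was not measured.

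The counts of each gene list stand beside 4.73% of all genes called higher and 4.66% called lower. HOX genes called higher lay in the HOXB and HOXA clusters. Of 39 HOX genes, 15 passed the filter, 10 were called higher and 2 lower, with a median log2 ratio of 2.39. Of the 15, 5 averaged under 1 CPM in the earlier controls and passed through control 3 alone, so the count and the median are in part set by the filter. HOXB9 had 0.139, 0.499 and 106 CPM in control 1, 2 and 3, and HOXB8 had 0, 0 and 58.3 CPM, at least 1104-fold higher. HOXB7 had 0.730, 1.43 and 18.3 CPM and HOXB2 had 8.76, 7.70 and 45.4 CPM. HOXB3, HOXB5 and HOXB6 were also above both earlier controls, and in the HOXA cluster HOXA3, HOXA11 and HOXA13 were. HOXB13, at the far end of its cluster and looked up for that, had 10.3, 8.19 and 6.87 CPM and was not called. The genes below both earlier controls, HOXC5 and HOXC6, lie in the HOXC cluster and had 3.72, 2.85 and 1.03 CPM and 8.59, 7.09 and 2.83 CPM. HOXB3, HOXB5, HOXB6, HOXB8, HOXB9, HOXC5 and HOXC6 share a locus with other genes, so the split of reads within a cluster is uncertain.

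Of the interferon-stimulated genes many were lower in control 3. Of 46 listed, 45 were in the table, 32 passed the filter, 11 were called lower and none higher, and 25 had a log2 ratio below 0. Their median log2 ratio was -0.90, and that of control 2 to control 1 was 0.02. IFITM1, which blocks the entry of viruses, had 46.1, 41.0 and 9.20 CPM, and its neighbour IFITM3 had 72.9, 73.1 and 34.9 CPM. IFIH1, a sensor of double-stranded RNA, had 4.59, 5.77 and 0.622 CPM, and RIGI, another such sensor, had 15.2, 15.8 and 6.56 CPM. LGALS3BP, a secreted glycoprotein, had 21.9, 25.4 and 3.48 CPM. IFIT1 had 37.7, 39.3 and 16.3 CPM. STAT2, a transcription factor that carries the interferon signal, had 19.1, 17.5 and 18.5 CPM, so control 3 lay within the range of the earlier controls. IFITM1 and RIGI share a locus with other genes, and IFITM genes are near-identical copies. IFITM3, RIGI, IFIT1 and STAT2 were named after their values were seen. Genes of HLA class I presentation had a median of -0.52, with 2 of 13 called lower and none higher, and both, HLA-B and PSMB9, are uncertain because of a shared locus.

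Epithelial genes included more higher than lower calls. Of 40 listed, 18 passed the filter, 7 were called higher and 2 lower, with a median of 0.86. KRT8, a keratin of simple epithelia, had 763, 890 and 2401 CPM, a ratio of 2.91 (2.87 to 2.94), and its partner KRT18 had 563, 683 and 1554 CPM. Both have many near-identical pseudogenes, and reads may have been split with them. SPINT2, an inhibitor of serine proteases on the cell surface, had 2.85, 1.96 and 36.7 CPM and shares a locus. In knockdown 1 and 2 KRT8 had 4987 and 5793 CPM and SPINT2 95.2 and 89.7 CPM, above control 3. KRT80 had 90.7, 87.9 and 243 CPM. CLDN1, a protein of tight junctions, was among the 2 lower, with 80.0, 60.0 and 28.7 CPM. Neither of the 2, CLDN1 and MUC1, was called against the 100 nearest genes, and MUC1 shares a locus. CDH1 and EPCAM had no count in any control.

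Genes of WNT signalling included 6 higher and 1 lower of 29 past the filter, out of 49 listed. Beside SFRP1, the receptor FZD4 had 8.80, 5.42 and 187 CPM, a ratio of 26.2 (23.7 to 29.0), and is uncertain because of a shared locus. The transcription factor TCF7 had 4.17, 4.03 and 76.0 CPM, a ratio of 18.5 (16.2 to 21.3), and its relative TCF7L2, named after its values were seen, had 5.21, 4.74 and 25.8 CPM. The ligand WNT10B had 0, 0 and 105 counts. ROR1, a WNT receptor, was the 1 lower. The higher genes named here are single members of different kinds. WNT10B and SFRP1 averaged under 1 CPM in the earlier controls and passed the filter through control 3 alone. The median over the list was 0.22.

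Collagens went both ways, with 4 higher and 3 lower of 16 past the filter, out of 30. COL1A2, part of fibrillar collagen type I, had 66.9, 71.1 and 924 CPM, a ratio of 13.4 (12.96 to 13.9), and no count in knockdown 1 and 2. COL13A1, a membrane collagen, had 0.382, 0.784 and 27.5 CPM. COL17A1, a collagen of hemidesmosomes, had 33.9, 33.5 and 3.36 CPM, and COL27A1 had 16.1, 13.7 and 0.373 CPM, both with a shared locus. ITGA3, an integrin that binds laminin, had 104, 78.1 and 280 CPM. Integrins and laminins had 2 higher and 1 lower of 16, LAMA5, with a shared locus and 10.2, 8.69 and 1.71 CPM, being the lower. TGFBI, a matrix protein that integrins bind, had 0.174, 0.819 and 51.6 CPM. Proteases of the matrix and their inhibitors had 3 higher and none lower of 18.

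Among receptor tyrosine kinases 4 were higher and 3 lower of 25. AXL, linked to the mesenchymal state, had 71.3, 86.9 and 356 CPM, a ratio of 4.51 (4.36 to 4.67). EGFR, named after its values were seen, had 157, 147 and 334 CPM, and EPHA7, a receptor of ephrins, had 0, 2 and 433 counts. Measured against the 100 nearest genes, 3 of the 25 were called higher. They were AXL, EPHA7 and EPHB2, and EGFR was not among them. DUSP6, a phosphatase that ERK signalling induces, had 22.5, 14.4 and 1.12 CPM. Of 28 genes of ERK output 2 were higher and 1 lower, so their shares were near those of all genes. Axon guidance genes had 3 higher and 3 lower of 26. SEMA6B, a semaphorin, had 28.3, 31.8 and 327 CPM, and EFNA5, an ephrin, had 73.9, 69.4 and 15.8 CPM.

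The cytokine LIF had 0, 0 and 880 counts and was at least 518-fold higher, while the 3 knockdown libraries had 74.5, 74.3 and 17.3 CPM against 27.3 CPM in control 3. CSF1, the growth factor of macrophages, had 14.4, 14.8 and 104 CPM, and BIRC3, an NF-kB target that blocks cell death, had 5.63, 4.52 and 33.7 CPM. Of 16 cytokine and NF-kB genes past the filter, out of 36, 4 were higher and 1 lower. The lower 1 was TNFAIP3, which ends NF-kB signalling, with 4.38, 3.35 and 0.839 CPM, named after its values were seen. SOX9, a transcription factor of pancreatic ducts, had 97.7, 89.5 and 302 CPM and was the 1 gene called of 11 pancreas and endoderm factors.

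Redox genes of the NRF2 programme had 3 lower and none higher of 27, a small number to read beside 4.66% lower over all genes. SLC7A11, the cystine transporter, had 125, 152 and 22.7 CPM and was 6.07-fold lower (5.63 to 6.56). TXNRD1, thioredoxin reductase, had 926, 796 and 279 CPM and was 3.09-fold lower (3.02 to 3.16). The antioxidant enzyme PRDX6, not on the list, had 1038, 1078 and 336 CPM. ABCC3, a pump for drug conjugates, had 3.23, 1.96 and 0.373 CPM. NRF2 genes had a median of -0.16, and the control 2 to control 1 median was 0.28.

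YAP and TEAD targets, genes tied to cell stretch and density, had 2 higher and 5 lower of 19. CCN2 had 471, 331 and 0 counts and was at least 151-fold lower, and NUAK2, a kinase, had 25.2, 20.2 and 3.64 CPM. Replication-dependent histones had 6 lower and none higher of 34. H2BC12 had 86.5, 95.1 and 24.2 CPM and H2AC6 had 25.3, 28.1 and 3.70 CPM. Histone genes are near-identical copies, so the split of reads between them is uncertain.

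PP2A subunits and regulators were close to the earlier controls, with none higher and 3 lower of 33 and a median of -0.01. The regulatory subunit PPP2R2C had 13.4, 14.7 and 2.18 CPM and was 6.45-fold lower (5.05 to 8.36). PPP2R3C had 10.6, 6.88 and 1.71 CPM and PPP2R3A had 15.5, 15.997 and 6.34 CPM. The catalytic subunits PPP2CA and PPP2CB had 507, 533 and 375 CPM and 108, 102 and 106 CPM, PPP2CA with a shared locus. PPP2CA lies on chromosome 5 and had a log2 ratio of -0.47, and of -0.03 against its 100 nearest genes. PPP2R1B, the other scaffold, had 71.2, 68.1 and 121 CPM and lies on chromosome 11.

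No gene of 79 cytosolic ribosomal proteins, 33 of mitosis, 23 of the p53 pathway and 18 heat shock proteins was called, and of 35 genes of G1/S and DNA replication CDK6 was the 1 called. Their median log2 ratios were 0.04, -0.16, -0.08, -0.32 and 0.23. Of 76 oxidative phosphorylation genes 2 were higher and none lower, with a median of 0.24. Sterol and fatty acid synthesis held more calls. Of 29 such genes 5 were higher and 1 lower, with a median of 0.44. DHCR7, which makes cholesterol in its last step, had 62.7, 63.9 and 172 CPM, and ACACA, which makes malonyl-CoA, had 117, 113 and 252 CPM. ELOVL6, a fatty acid elongase, had 7.23, 5.20 and 0.186 CPM. Measured against the 100 nearest genes, 4 of the 29 were called higher. FADS1, FADS2 and DHCR7, on chromosome 11, lost their call, with log2 ratios of 0.53, 0.62 and 0.89 on that measure beside 1.07, 1.18 and 1.44 on the other, while genes not called before gained one. FADS1 and FADS2 share a locus. ACACA and FADS1 were named after their values were seen.

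The largest differences in CPM among called genes, which abundant genes dominate, were in 10 genes. PYGB, a glycogen phosphorylase, had 443, 480 and 1807 CPM, a ratio of 3.92 (3.86 to 3.98). TGM2, an enzyme that crosslinks proteins, had 538, 622 and 1473 CPM, and 125 and 150 CPM in knockdown 1 and 2. CTSD, a protease of lysosomes, had 286, 353 and 898 CPM, and GANAB, a glucosidase of the endoplasmic reticulum, had 70.6, 125 and 510 CPM. Both lie on chromosome 11, and CTSD shares a locus and was not called against its 100 nearest genes. The thrombin receptor F2R had 1098, 1140 and 483 CPM and was not called by that measure either. The others were KRT8, KRT18, COL1A2, PRDX6 and TXNRD1. SCG2, a secretory granule protein named here as an endocrine marker, had 450, 386 and 86.0 CPM, while INS, GCG, SST and CHGA had no count in any control.

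Among genes past the filter in chromosome order, called genes stood next to each other in 15 runs of at least 3 called in the same direction. Of the runs 11 were higher and 4 lower, with 54 genes in all. Genes under the filter were skipped and can lie between the members of a run. Measured against the 100 nearest genes, every gene was still called in 8 of the runs, and at least 1 gene of the other 7 was not. The order was taken from RefSeq, which placed 12957 of the genes past the filter. These runs were found after the values were seen. The longest held 8 genes of the HOXB cluster, from HOXB3 to LINC03057, all called on that measure too, as were the kallikrein, keratin, ABCA, caspase and PSG runs named here. The kallikrein and ABCA genes, HOXB5, HOXB6, HOXB8 and HOXB9 averaged under 1 CPM in the earlier controls and passed the filter through control 3 alone. PDGFD, CASP1, CARD16, CASP1P2 and the PSG genes were under 1 CPM in control 3 and passed through the earlier controls. For such genes the filter left little room for another call. Their ratios were too large for the nearest genes to undo it, so that measure is no support. The kallikreins KLK5, KLK6 and KLK7 formed a run on chromosome 19, in which KLK5 had 0, 0 and 282 counts and KLK7 had 3, 0 and 113. The keratins KRT80, KRT81, KRT8 and KRT18 formed a run on chromosome 12. The transporters ABCA8, ABCA6 and ABCA10 formed a run on chromosome 17, where ABCA8 had 0.0695, 0 and 6.09 CPM and ABCA10 shares a locus. FZD4 stood between PRSS23, a serine protease with 14.9, 16.99 and 82.2 CPM, and TMEM135, which was not called against its 100 nearest genes.

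On chromosome 11, PDGFD, CASP4, CASP1, CARD16 and CASP1P2 were all below both earlier controls. CASP1, the caspase that activates interleukin 1 beta, had 55, 67 and 0 counts, and CARD16, which resembles its recruitment domain, had 561, 514 and 0 counts, at least 203-fold lower. CASP1 and CARD16 had no count in knockdown 1 and 2 either, and 2.24 and 20.5 CPM in the library labelled knockdown 3. The genes past the filter before and after the run, DYNC2H1 and MSANTD4, had log2 ratios of -0.47 and 0.54. The thrombin receptor family formed a lower run on chromosome 5, where F2RL1 had 214, 188 and 45.2 CPM and F2RL2 had 19.0, 18.3 and 2.21 CPM. F2R, the middle gene of that run, had a log2 ratio of -0.92 against its 100 nearest genes and was not called by that measure. The pregnancy-specific glycoproteins PSG4, PSG5 and PSG9 formed another, with ratios between -4.32 and -3.43 on the log2 scale, and are near-identical copies. PSG9 also shares a locus.

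Whole chromosomes and parts of them were also shifted. The median log2 ratio was 0.52 over 709 genes of chromosome 11, 0.38 over 138 genes of chromosome 21 and 0.30 over 624 genes of chromosome 7. It was -0.34 over 598 genes of chromosome 5, -0.28 over 426 genes of chromosome 14 and -0.17 over 1325 genes of chromosome 1. For control 2 against control 1 the median lay between -0.05 and 0.05 on each chromosome. On chromosome 11, 81.5% of genes had a log2 ratio above 0, and on chromosome 5 20.9% did. The shift was much the same against each earlier control, with 0.51 and 0.53 for chromosome 11 and -0.37 and -0.34 for chromosome 5.

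Of the genes with the highest levels there, RPS3, a ribosomal protein on chromosome 11, had 1099, 1160 and 1819 CPM. EEF1G, a translation factor, had 1231, 1413 and 1987 CPM, and RPS3 and EEF1G each share a locus with other genes. HSPA8, a chaperone on the same chromosome with a shared locus, had 3401, 3495 and 3261 CPM and lay below both. On chromosome 5, RACK1, a protein of the ribosome, had 3341, 3420 and 2553 CPM. HSPA9, a chaperone of mitochondria, had 1346, 1367 and 1070 CPM, and RACK1 and HSPA9 each share a locus with other genes. NPM1 there had 1571, 2363 and 2269 CPM. DYNC1H1, a dynein chain on chromosome 14, had 1418, 1039 and 929 CPM, and its control 2 differed from control 1 by as much, at -0.45 on the log2 scale. HNRNPC, an RNA-binding protein on the same chromosome, had 547, 700.4 and 996 CPM, against the direction of the chromosome. ACTB on chromosome 7 had 11595, 14014 and 15232 CPM. The shift was thus one of the median, and single genes departed from it.

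Within chromosomes, a running median of 101 genes ranged from -0.47 to 0.67 for control 3 and from -0.24 to 0.16 for control 2 against control 1. The shift on chromosome 1 lay in 579 genes from SRGAP2D to PGBD2, which make up the end of the chromosome and had a median of -0.37. On chromosome 2 it lay in 101 genes from HYCC2 to RHBDD1 (0.51), on chromosome 12 in 156 genes from ANKRD13A to ZNF268 (0.43) and on chromosome 16 in 255 genes from CNEP1R1 to FAM157C (0.37). Control 2 against control 1 had medians of -0.01, 0.05, 0.02 and 0.03 over the same genes. At the start of chromosome 12, 33 genes had a median of 0.22, but there control 2 against control 1 stood at -0.21.

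Stretches beyond 0.25 held 1823 higher and 1334 lower genes. In the higher stretches 9.87% of genes were called higher and 2.69% lower, and in the lower stretches 2.55% and 8.85%. The stretches were picked by the same control 3 ratios that give the calls. An excess of calls in their direction is therefore built in, and these shares only describe the stretches. In the 9800 genes outside, 4.06% were called higher and 4.49% lower. These 9800 genes were 75.6% of the genes placed and held 68.7% of the calls. Measured against the median of the 100 nearest genes, 546 genes were called higher and 607 lower of 12957 (4.21% and 4.68%). Of the 1219 genes called before that RefSeq placed, 1034 were called in the same direction by this measure. The number of copies of each chromosome was not measured in these libraries.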

How the data were processed

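RNA from 6 libraries of MiaPaCa2 cells with CasRx, prepared with a TruSeq kit from plates at no more than 60% confluency, was sequenced by the authors. The deposited values are whole-number counts per gene in 42540 rows, made by the authors. The submitters' processing notes name FastQC, STAR and StringTie, while settings, genome build and annotation are, in the sources used here, not given. The table holds 25316 rows with StringTie locus names, so counts rest on assembled loci.

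Rows that repeated a row of the same gene (159) were dropped and the other rows of a gene summed. Counts were scaled by TMM over the 6 libraries (edgeR 4.0.16 in R 4.3.3), with Python 3.11.15, pandas 2.3.3, numpy 2.4.6 and scipy 1.17.1 for the rest. Genes with an average of at least 1 CPM over the 2 sides were kept. Log2 ratios take 0.5 CPM on each side, and understate the change of low genes. Intervals are exact Clopper-Pearson intervals at 95% of the share of counts. Bounds take 3 counts over the group. Genes on the Y chromosome and XIST were left out. The call rule was run on simulated counts with known folds as a check of the code. Their spread was set beforehand and not taken from these libraries, so the run gives no rate of false calls here.

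Named genes are the 15 highest and 15 lowest called ratios averaging at least 5 CPM, the 10 largest CPM differences, up to 4 called members of a list, PP2A subunits, markers and up to 3 genes per chromosome described. The comparison, the members and the 35 lists were chosen with earlier results of these data known. Stretches (running median beyond 0.25 over at least 25 genes), switched genes (100 counts) and runs (3 genes) were defined after seeing the data. The paper calls the samples independent replicates made over 3 weeks and places the third knockdown sample at a higher passage. Whether the libraries came from separate cultures is not stated. Alternatives were other scalings, with DESeq2 1.42.0 size factors among them, pseudocounts, filters, folds, single rows, each earlier control left out, and ratios against nearest genes.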

Additional observations from a re-analysis of the deposited data

How the results depend on the processing

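No named gene of the 160 called changed sign under any alternative run. The call rule had all but fixed this, since each of them lay at least 2-fold outside both earlier controls, so it is no support. With 2 CPM as pseudocount 395 genes were lower, against 609, and the chromosome 11 median was 0.47, against 0.52. With a filter of 5 CPM 365 genes were lower, 6 HOX genes higher, since 4 fell under the filter, and the chromosome 11 median was 0.55. With no filter beyond 1 count it was 0.25, and with library size alone 0.43. A fold of 1.5 gave 1437 higher, 1336 lower and 20 lower interferon-stimulated genes, and a fold of 4 gave 225 higher and 178 lower. Without 1 of the earlier controls, which leaves 1 condition fewer to meet, counts were 1024 (without control 1) and 1054 (without control 2) higher, and 891 and 1031 lower. The rest of the scalings, the pseudocount of 0.1 CPM, single rows and the 100 nearest genes kept both counts within 1.5 times. Of the 160 named genes called, 156 were called with library size alone, 146 with 2 CPM as pseudocount and 144 against the 100 nearest genes. No paired analysis was possible because week 3 has 1 control library and the sides share no replicate number. Depth limits genes near 1 CPM most, where 17.2% were called.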

Other observations

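Other gene groups of the comparison held scattered calls. Among metallothioneins and zinc transporters, 2 of 13 were higher in control 3 and 1 lower, with MT1M, a metal-binding protein, at 0.243, 0.0713 and 11.3 CPM in control 1, 2 and 3. Of 28 aldehyde dehydrogenases and glutathione S-transferases 3 were higher and none lower, ALDH3B1 having 4.35, 5.27 and 24.4 CPM and ALDH5A1 14.9, 15.2 and 40.8 CPM. Of 8 protocadherins past the filter 3 were higher and 2 lower. FAT1, an atypical cadherin counted among them, had 70.5, 5.13 and 198 CPM, so that its earlier controls differed by 3.66 on the log2 scale. Genes of DNA methylation and Polycomb had none higher and 2 lower of 32, namely TET2, which oxidises methylated cytosine, with 10.6, 8.44 and 1.31 CPM, and PCGF5, a Polycomb subunit, with 8.83, 7.80 and 2.74 CPM. The tissue plasminogen activator PLAT had 0.487, 0.428 and 2.52 CPM, and the protease inhibitor SERPINE2 1.29, 2.07 and 7.92 CPM.

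Of 30 TGF-beta and BMP genes 1 was higher and 2 lower, LTBP2, a binder of latent TGF-beta, having 69.7, 59.1 and 20.9 CPM. Of 22 mesenchymal genes 2 were higher and 2 lower, FBN1, a microfibril protein, having 6.71, 4.74 and 0.870 CPM. Hypoxia and glycolysis genes had 2 higher and 1 lower of 35, with ANGPTL4, an inhibitor of lipoprotein lipase, at 3.998, 4.10 and 18.7 CPM, while ATF4 and unfolded protein response genes had 2 higher and 1 lower of 39. Amino acid transporters had 1 higher and 1 lower of 19, caspases and BCL2 genes none higher and 3 lower of 25, and mitochondrial mRNAs 1 lower of 13. DLC1, a brake on the GTPase RHOA, had 5.98, 6.41 and 0.684 CPM. EMP1, a membrane protein, had 218, 205 and 588 CPM.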
